A study of Homo sapiens with 6 samples.

Results

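Secreted hepatic serpins are plasma proteins that hepatocytes release in quantity, and their mRNAs were followed here in Huh7, a human hepatocellular carcinoma cell line. The group was set by name as 9 genes, SERPINA1, SERPINA3, SERPINA4, SERPINA5, SERPINA6, SERPINA7, SERPINA10, SERPINF1 and SERPING1, out of 26184 genes and loci in the expression table. Each gene name matched 1 row of the table, and all 9 had enough counts to test. RNA-seq was performed on 3 samples of Huh7 P, the untreated parental line, and 3 samples of Huh7 LR. Huh7 LR was derived from Huh7 P under lenvatinib, an inhibitor of several receptor tyrosine kinases, raised from 1 to 20 μM over about 10 months. All samples carried the label WT for genotype. Each line was a single culture lineage, so the samples are separate plates of 1 parental and 1 resistant line, and p-values measure the spread between those plates. The resistant line was kept in 20 μM lenvatinib, but whether the plates taken for RNA held the drug is not given in the sources used here, and drug exposure, selection and 10 months of separate culture cannot be told apart.

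Most serpins are suicide inhibitors of serine proteases. The protease cleaves an exposed reactive loop of the serpin and is then trapped in a covalent complex as the loop inserts into the serpin body. Some family members have lost inhibition and carry hormones instead, and the liver is the main source of most of those found in blood. Of the 9 proteins, SERPINA1 (alpha-1-antitrypsin) and SERPINA3 (alpha-1-antichymotrypsin) inhibit neutrophil proteases, SERPINA4 (kallistatin) inhibits tissue kallikrein, and SERPINA5 (protein C inhibitor) and SERPINA10 (protein Z-dependent protease inhibitor) act on clotting enzymes. SERPING1 is the C1 inhibitor of complement and of the contact system. SERPINA6 carries cortisol, SERPINA7 carries thyroxine, and SERPINF1 (pigment epithelium-derived factor) is a non-inhibitory serpin known for restraining blood vessel growth.

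The reads counted on genes totalled 62738937 to 71427573 per library, and the ranges of both lines overlapped. Counts were scaled to library size with edgeR's TMM factors and are given as CPM, and a count of 0 allows up to 3 counts, which was 0.042 to 0.049 CPM and covers counting error only. The liver label held, since ALB and AFP had means of 5256 and 8494 FPKM in Huh7 P and 8931 and 7390 FPKM in Huh7 LR. FPKM is the authors' value scaled for transcript length and library size, and is used here to compare levels between genes. Summed over 10 hepatocyte markers, the level was 14281 to 17425 FPKM in the Huh7 P libraries and 18994 to 20277 FPKM in the Huh7 LR libraries, with 3 of 10 markers called higher (APOC3, AHSG and APOA2, at log2 fold changes of 1.93, 1.73 and 1.49). The background by the criteria given below was 4.43% higher and 1.78% lower. The 6 fibroblast markers summed to 0.378 to 0.428 FPKM in Huh7 P and 0.848 to 1.68 FPKM in Huh7 LR, with 1 of 2 tested genes called higher (COL1A1) and DCN at 0. The 6 leukocyte markers summed to 37.0 to 40.9 FPKM in Huh7 P and 5.94 to 8.10 FPKM in Huh7 LR, nearly all of it LYZ, which was called lower, while TYROBP and HLA-DRA had no counts. The part of these marker differences in the results below was not tested.

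The promoters of these genes are shown for a motif that some of them share. RefSeq promoter sequences on GRCh38.p14 were matched by symbol for 7 of the 9 genes, with 9 annotated starts among them. No entry was matched for SERPINF1 and SERPING1. For SERPINA4 and SERPINA5 the RefSeq start lies inside the gene as annotated in GENCODE release 29, which gives the gene coordinates below. The bases before that start therefore lie inside the annotated gene. The motif GTTAAT, which recurs in promoters of liver genes, was searched on both strands in the 250 bases before each start. It was present in 5 of the 9 promoters, each from a different gene, against 6.23% of 35116 promoters of the same length. The 120 bases before the start are printed for these 5 genes, 5′ to 3′ on the strand of the gene, with each match (GTTAAT, or ATTAAC where it lies on the other strand) in capitals.
SERPINA1, chr14:94388603-94388722, minus strand: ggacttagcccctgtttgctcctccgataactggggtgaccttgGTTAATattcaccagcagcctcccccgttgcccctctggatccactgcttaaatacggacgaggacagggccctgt
SERPINA4, chr14:94561322-94561441, plus strand: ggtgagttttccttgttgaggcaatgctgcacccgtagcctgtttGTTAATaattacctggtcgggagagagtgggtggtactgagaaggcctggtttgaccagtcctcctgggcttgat
SERPINA6, chr14:94323337-94323456, minus strand: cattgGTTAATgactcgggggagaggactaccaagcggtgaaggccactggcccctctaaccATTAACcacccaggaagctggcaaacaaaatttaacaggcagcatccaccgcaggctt
SERPINA7, chrX:106038728-106038847, minus strand: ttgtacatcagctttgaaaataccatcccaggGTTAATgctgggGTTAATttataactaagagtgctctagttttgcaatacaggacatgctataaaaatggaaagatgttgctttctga
SERPINA10, chr14:94293269-94293388, minus strand: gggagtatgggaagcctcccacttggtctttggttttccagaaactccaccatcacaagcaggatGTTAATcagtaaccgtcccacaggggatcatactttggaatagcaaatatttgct
For SERPINA1 the start shown is the downstream one of 2, and the upstream start had no match. The motif began 76 bases before the start in SERPINA1, 75 in SERPINA4 and 55 in SERPINA10. SERPINA7 had it at 88 and 76 bases, and SERPINA6 at 170, 115 and 58 bases, of which the farthest lies outside the printed stretch. The second start of SERPINA10 had no match. A match is a description of the sequence and does not show that a factor was bound. The 2 genes without this motif are shown for comparison.
SERPINA3, chr14:94612271-94612390, plus strand: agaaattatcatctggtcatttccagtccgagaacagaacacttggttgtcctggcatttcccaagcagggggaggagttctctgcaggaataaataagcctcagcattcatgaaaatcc
SERPINA5, chr14:94581306-94581425, plus strand: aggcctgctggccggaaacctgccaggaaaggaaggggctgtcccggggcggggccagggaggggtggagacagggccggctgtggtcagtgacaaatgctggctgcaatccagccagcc
In the same 250 bases, TATAAA (on either strand, 10.7% of all promoters) was present in SERPINA7 alone of the 7 genes, 29 bases before the start and again, on the other strand, sharing 1 base with a GTTAAT match. The STAT palindrome TTCNNNGAA (6.57% of all promoters) was present in SERPINA5 and SERPINA6, and TTGCNNAA, a letter form of the C/EBP site (9.05% of all promoters), in SERPINA7 and SERPINA10. CCAAT (32.0% of all promoters) was found in SERPINA6 alone, where it lies on the other strand and shares 1 base with a GTTAAT match. The genes with a GTTAAT match included genes that rose, a gene that fell and genes that did not pass the test between the lines, as given below. A table of counts per gene cannot show which of the 2 starts of SERPINA1 was in use.

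The 9 mRNAs differed widely in level, as the plot of FPKM by library shows. SERPINA1 was the most abundant by far, with 1487 ± 45.4 FPKM (SD, n = 3) in Huh7 P and 1626 ± 130 FPKM (SD, n = 3) in Huh7 LR. By mean FPKM it ranked 20 among the 19974 annotated genes in Huh7 P and 22 in Huh7 LR. It made up 86.2% to 87.0% of the summed FPKM of the 9 genes in Huh7 P libraries and 82.2% to 84.1% in Huh7 LR libraries. In Huh7 P the order continued with SERPINF1 (119 FPKM), SERPINA6 (51.7 FPKM), SERPINA5 (37.3 FPKM), SERPINA4 (9.27 FPKM), SERPING1 (5.89 FPKM), SERPINA10 (3.60 FPKM), SERPINA3 (2.56 FPKM) and SERPINA7 (0.180 FPKM). No neighbours in this order overlapped between libraries. In Huh7 LR, SERPINA5 (51.8 FPKM) stood before SERPINA6 (46.2 FPKM) and SERPINA7 (1.60 FPKM) before SERPINA3 (1.21 FPKM). Both of these neighbouring pairs overlapped in Huh7 LR, so their order there is not resolved, whereas the other neighbours did not overlap. Without SERPINA1, the other 8 genes summed to 229 ± 10.6 FPKM (SD, n = 3) in Huh7 P and 327 ± 5.60 FPKM (SD, n = 3) in Huh7 LR. SERPINF1 supplied 51.8% of that sum in Huh7 P and 63.2% in Huh7 LR.

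**Figure D1:**
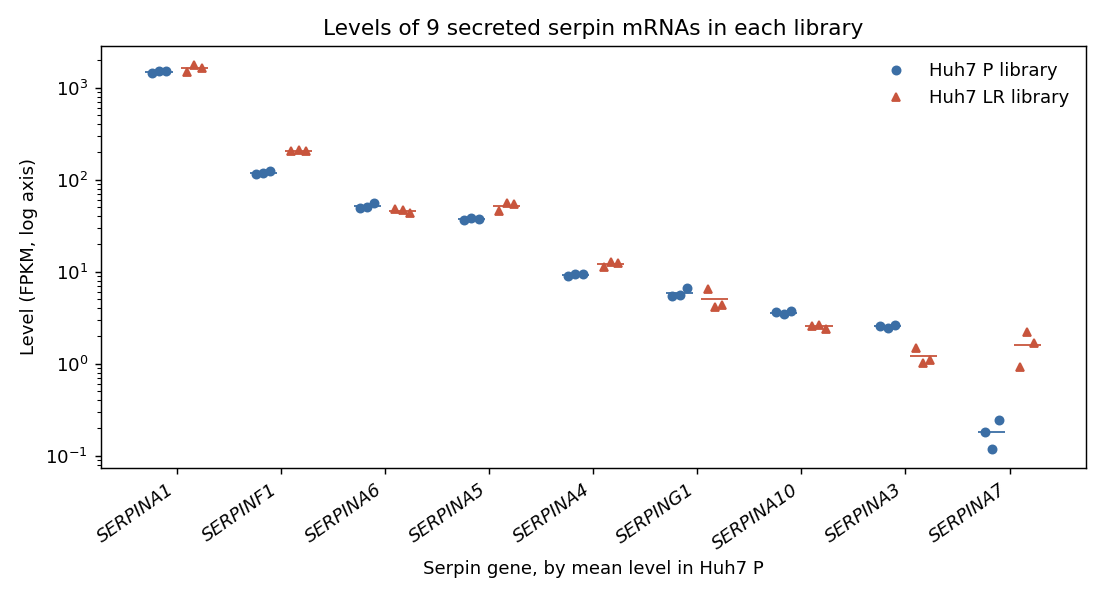
Level of each of the 9 serpin mRNAs in every library, in FPKM on a log axis, with circles for the 3 Huh7 P libraries, triangles for the 3 Huh7 LR libraries and short bars for the group means. SERPINA1 lies at 1435 FPKM or more in every library, and SERPINA7 moves from under 0.25 FPKM in Huh7 P to 0.911 FPKM or more in Huh7 LR.

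Huh7 LR was set against Huh7 P with the quasi-likelihood test of edgeR, and p-values were adjusted by the Benjamini-Hochberg method over all 17531 genes and loci tested. To be called, a gene had to pass both an adjusted p of 0.001 and a 2-fold change, while a difference of a single gene was read at an adjusted p under 0.05. SE is the standard error of a log2 fold change. Of the 9 genes, 1 was called higher (SERPINA7) and 1 lower (SERPINA3), against 4.43% and 1.78% of all genes and loci. At an adjusted p under 0.05 without the fold threshold, 4 were higher (SERPINA7, SERPINF1, SERPINA5 and SERPINA4), 2 lower (SERPINA3 and SERPINA10) and 3 did not pass (SERPINA1, SERPINA6 and SERPING1). The background was 23.3% higher and 22.4% lower, so the 9 genes did not move in 1 direction. The Huh7 LR libraries lay above all Huh7 P libraries for 4 genes and below them for 3, against 28.2% and 27.7% of all genes and loci. The median log2 fold change of the 9 genes was 0.09, beside 0.00 over all genes and loci tested. As these are bulk samples, fewer cells with an mRNA and less of it per cell cannot be told apart.

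**Figure D2:**
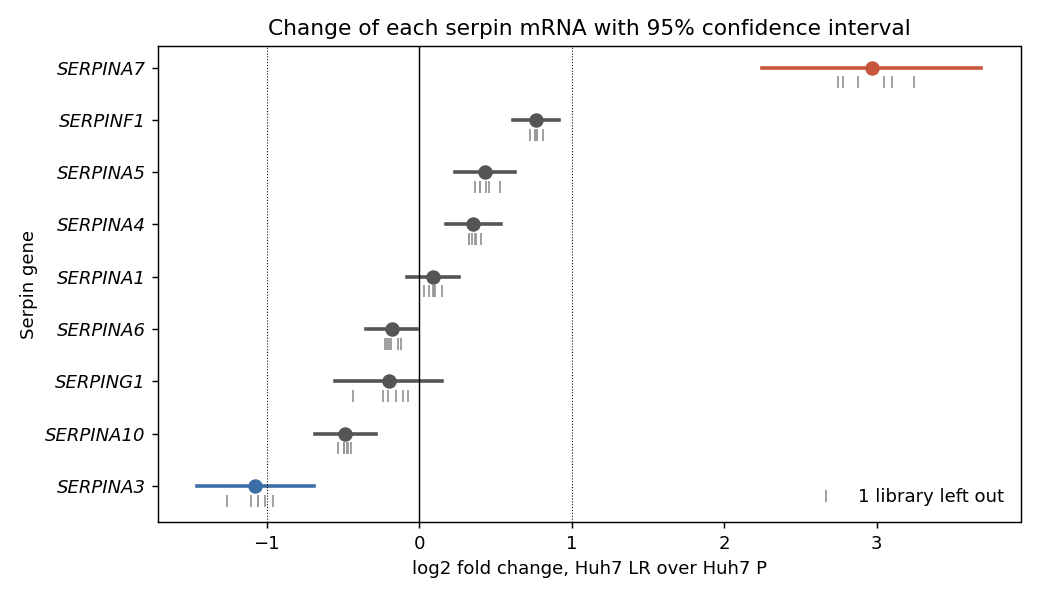
log2 fold change of each serpin mRNA in Huh7 LR over Huh7 P (point) with its 95% confidence interval (bar), from edgeR's quasi-likelihood fit, where red marks the gene called higher, blue the gene called lower, dotted lines 2-fold and grey ticks the 6 fits with 1 library left out. SERPINA7 stands apart at 2.97, SERPINA3 lies at -1.07 with ticks on both sides of the 2-fold line, and the interval of SERPINA1 includes 0.

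Among the inhibitors of neutrophil proteases, SERPINA3 fell and SERPINA1 did not pass the test. SERPINA1, which protects tissue from neutrophil elastase (ENSG00000197249, chromosome 14, 94376747 to 94390693), measured 2569, 2698 and 2709 CPM in Huh7 P and 2579, 3079 and 2831 CPM in Huh7 LR. Its lowest Huh7 LR library lay inside the Huh7 P range. The log2 fold change was 0.09 (SE 0.08, edgeR adjusted p = 0.378), with a 95% interval from -0.08 to 0.26. This interval reaches 1.20-fold at its upper end and excludes a change of 2-fold. SERPINA2, a close paralog beside it, had 22 to 57 counts per library. How the counting treated reads that fit both genes is not given, so the value of SERPINA2 is uncertain. The 3 annotated genes whose profile over the 6 libraries was closest to that of SERPINA1 were PPP4R1, SEC24C and GNPAT, with root mean square differences of 0.014, 0.017 and 0.020 in log2 CPM relative to the Huh7 P mean.

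SERPINA3 (ENSG00000196136, chromosome 14, 94612377 to 94624055), an acute phase inhibitor of cathepsin G, measured 4.68, 4.33 and 4.70 CPM in Huh7 P and 2.70, 1.84 and 1.98 CPM in Huh7 LR. Every Huh7 LR library lay below every Huh7 P library, with Huh7 LR replicate 1 nearest to them. The log2 fold change was -1.07 (SE 0.17, edgeR adjusted p = 4.83e-04), just past the 2-fold threshold. The call was lost in 5 of the 6 fits with 1 library left out, where edgeR gave log2 fold changes of -1.10 to -0.96 and an adjusted p of 0.00185 to 0.00367. It held without Huh7 LR replicate 1 at -1.26, and the difference stayed under an adjusted p of 0.05 in all 6 fits.
A read-through gene, AL049839.2, runs over SERPINA3 on the same strand and shares 1592 of its 5007 exon bases (31.8%). The Huh7 P libraries held 45, 113 and 119 counts of it and the Huh7 LR libraries 44, 68 and 73. For SERPINA3 the Huh7 P libraries held 336, 267 and 307 counts and the Huh7 LR libraries 176, 129 and 135. Their sum was 381, 380 and 426 counts for Huh7 P, above 220, 197 and 208 counts for Huh7 LR. The summed log2 fold change was -0.96 (SE 0.14, edgeR adjusted p = 2.80e-04), lower but under 2-fold.

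The inhibitors of kallikreins and clotting enzymes moved by less than 2-fold and in both directions. SERPINA4 (ENSG00000100665, chromosome 14, 94561091 to 94569913) measured 19.2, 20.4 and 20.3 CPM in Huh7 P and 23.8, 26.9 and 25.9 CPM in Huh7 LR. The groups did not overlap, and the log2 fold change was 0.36 (SE 0.08, edgeR adjusted p = 0.00459). SERPINA5 (ENSG00000188488, chromosome 14, 94561442 to 94593120), which inhibits activated protein C, measured 86.2, 93.4 and 91.9 CPM in Huh7 P and 105, 134 and 127 CPM in Huh7 LR. This was a log2 fold change of 0.43 (SE 0.09, edgeR adjusted p = 0.00256), again without overlap between the lines. In GENCODE release 29 the annotation of SERPINA5 begins within SERPINA4 and shares 53 exon bases with it on the same strand.

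SERPINA10 fell in Huh7 LR. SERPINA10 (ENSG00000140093, chromosome 14, 94280455 to 94293271), which with protein Z inhibits activated factor X, measured 17.1, 17.0 and 17.6 CPM in Huh7 P and 12.1, 13.2 and 11.6 CPM in Huh7 LR. All Huh7 LR libraries were below all Huh7 P libraries. The log2 fold change was -0.48 (SE 0.09, edgeR adjusted p = 0.00133), a level 0.715 times that of Huh7 P.

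SERPING1 did not pass the test, and 1 library set its spread. SERPING1 (ENSG00000149131, chromosome 11, 57597387 to 57614853) measured 11.6, 12.04 and 13.1 CPM in Huh7 P and 13.9, 8.89 and 9.26 CPM in Huh7 LR. Huh7 LR replicate 1 lay above all Huh7 P libraries and the other two Huh7 LR libraries lay below them. The log2 fold change was -0.20 (SE 0.16, edgeR adjusted p = 0.340), with a 95% interval from -0.55 to 0.15. Without Huh7 LR replicate 1 it was -0.43 (edgeR adjusted p = 0.00937).

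Of the hormone carriers, SERPINA7 showed the largest change of the 9 genes. SERPINA7 (ENSG00000123561, chromosome X, 106032442 to 106038738), the main carrier of thyroxine in blood, gave 37, 19 and 32 counts from Huh7 P libraries and 130, 313 and 265 from Huh7 LR libraries. These are 0.516, 0.308 and 0.489 CPM in Huh7 P and 1.99, 4.47 and 3.88 CPM in Huh7 LR. The lowest Huh7 LR library lay well above the highest Huh7 P library, although replicate 1 was far below the other two Huh7 LR libraries. The log2 fold change was 2.97 (SE 0.33, edgeR adjusted p = 3.56e-05), or 7.82-fold with a 95% interval from 4.76 to 12.9. The call held in all 6 fits with 1 library left out, at log2 fold changes of 2.74 to 3.24. On the log2(FPKM + 1) scale, which understates changes of low genes, the difference was 1.11. SERPINA7 remained a minor transcript, and its mean of 1.60 FPKM in Huh7 LR ranked 10625 among annotated genes. By the same measure as above, LTBP1, HEPACAM2 and MVB12B had the closest profiles, with root mean square differences of 0.32, 0.32 and 0.33.

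SERPINA6 (ENSG00000170099, chromosome 14, 94304248 to 94323394), the cortisol carrier, measured 78.1, 80.8 and 90.3 CPM in Huh7 P and 76.3, 74.6 and 69.0 CPM in Huh7 LR. The groups did not overlap, but the gap between them was smaller than the spread within Huh7 P. The log2 fold change was -0.18 (SE 0.08, edgeR adjusted p = 0.0764), with a 95% interval from -0.35 to -0.01. A small decrease is thus not resolved here, and the interval excludes a 2-fold change in either direction.

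SERPINF1 rose in every Huh7 LR library with little spread. SERPINF1 (ENSG00000132386, chromosome 17, 1761959 to 1777574) measured 187, 194 and 209 CPM in Huh7 P and 332, 341 and 331 CPM in Huh7 LR. The log2 fold change was 0.77 (SE 0.07, edgeR adjusted p = 9.03e-06), or 1.70-fold with a 95% interval from 1.53 to 1.89. It had the smallest adjusted p of the 9 genes while staying under 2-fold. Its neighbour SERPINF2, the plasmin inhibitor alpha-2-antiplasmin, ends 6690 bases before it. SERPINF2 rose from 179 ± 3.50 to 321 ± 49.9 CPM (SD, n = 3 each), or by a log2 value of 0.84 (SE 0.10, edgeR adjusted p = 7.29e-05).

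The cluster of chromosome 14 holds 6 of the 9 genes within 344 kb, between SERPINA10 and SERPINA3 (94280455 to 94624055, GENCODE release 29). Of its 11 annotated genes, 10 are in the table, and 7 of them had enough counts to test. Along the chromosome the log2 fold changes were -0.48 for SERPINA10, -0.18 for SERPINA6, 0.94 for SERPINA2, 0.09 for SERPINA1, 0.36 for SERPINA4, 0.43 for SERPINA5 and -1.07 for SERPINA3. SERPINA2, annotated as a polymorphic pseudogene, passed an adjusted p of 0.05 at 0.0380 in edgeR's test, at a mean of 0.803 CPM in Huh7 LR. Between SERPINA1 and SERPINA4, the genes SERPINA11, SERPINA9 and SERPINA12 had 14 counts or fewer in every library and were not tested. The cluster thus did not move in 1 direction, although most neighbouring tested genes shared a sign. SERPINA5 and SERPINA3, which lie on the same strand, moved in opposite directions. The read-through gene AL049839.2 (94592058 to 94624646) spans the gap between them, sharing 79 exon bases with SERPINA5 as well as those with SERPINA3. Its log2 value was -0.65 (SE 0.37, edgeR adjusted p = 0.183), and its libraries overlapped between the lines. Outside the cluster, PPP4R4 had a log2 fold change of -0.38, DICER1 one of -0.40 and CLMN one of 0.80, all at an adjusted p under 0.05 and under 2-fold. IFI27 (log2 fold change -0.41, adjusted p = 0.298) and IFI27L2 (0.04, adjusted p = 0.920) did not pass edgeR's test, and GSC had no counts. Of the 10 neighbours other than the 9 serpins, 0 were called by edgeR or by the Wald test of DESeq2 (background 4.43% higher and 1.78% lower). In edgeR 4 of 6 tested passed an adjusted p of 0.05, 2 higher (background 23.3%) and 2 lower (22.4%), and the same number had an unadjusted p under 0.05.

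**Figure D3:**
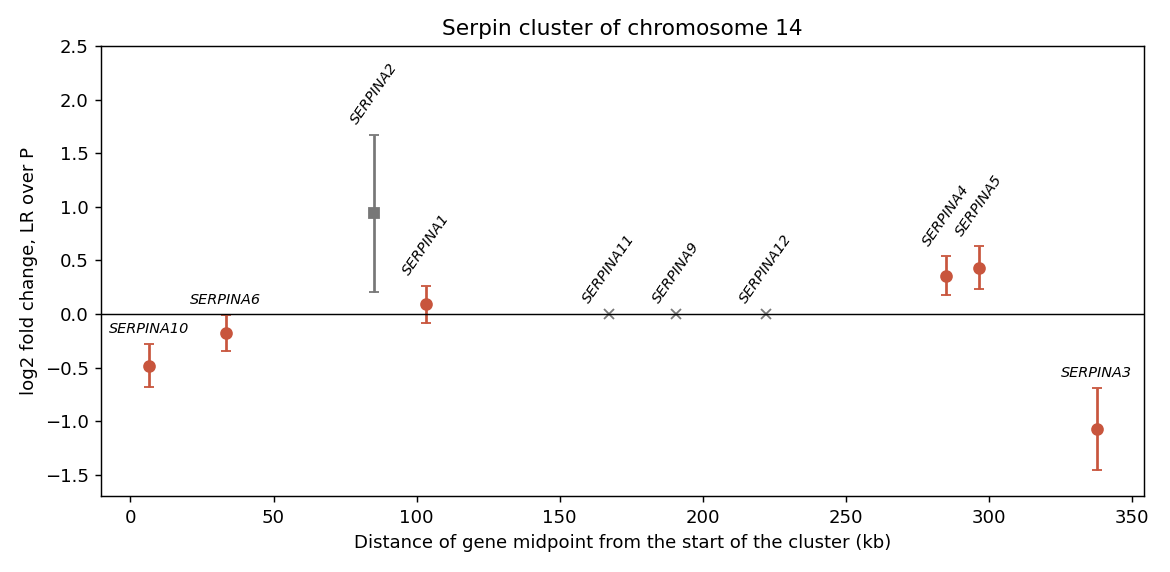
log2 fold change in Huh7 LR over Huh7 P of the genes of the chromosome 14 serpin cluster against the distance of each gene's midpoint from the start of SERPINA10 in kb, with 95% confidence intervals. Red circles are the 6 secreted serpins, the grey square is SERPINA2 and crosses on the zero line mark 3 genes with too few counts to test, which have no measured change. SERPINA4 and SERPINA5 lie above zero and SERPINA10 and SERPINA3 below it.

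The rest of the serpin superfamily holds 27 further genes, and 14 of them had enough counts. In Huh7 LR 9 passed an adjusted p of 0.05 as higher and 3 as lower, beside 23.3% and 22.4% of all genes and loci, with a median log2 fold change of 0.56. SERPIND1 and SERPINE2 were called higher (background 4.43%) and 0 genes lower (1.78%), by edgeR as by the Wald test of DESeq2. At an unadjusted p under 0.05 edgeR had 10 higher and 3 lower. SERPIND1, heparin cofactor II, rose from 25.7 ± 0.631 to 61.2 ± 5.03 CPM (SD, n = 3 each), or by a log2 value of 1.25. SERPINE2, which inhibits thrombin at cell surfaces, rose with a log2 fold change of 1.11. SERPINC1, which encodes antithrombin, had a log2 fold change of 0.31 (edgeR adjusted p = 0.0237). AGT, the non-inhibitory serpin that is the precursor of angiotensin, had one of -0.27 (adjusted p = 0.00878).

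Most of the tested proteases and cofactors listed for these serpins were higher in Huh7 LR. That list was chosen with earlier results of these data known. Of 19 proteases and cofactors listed, 13 had enough counts, 9 passed an adjusted p of 0.05 as higher and 1 as lower, and the median log2 fold change was 1.06. Over all genes and loci 23.3% were higher and 22.4% lower by this criterion, with a median of 0.00. The 6 called higher were C1S, PLAU, F12, C1R, MASP1 and F10 (background 4.43%), and 0 were called lower (1.78%) by edgeR or by the Wald test of DESeq2. F2 was the 1 that passed an adjusted p of 0.05 as lower, and was also the 1 lower at an unadjusted p under 0.05. C1S, a target of SERPING1, rose from 4.72 ± 0.393 to 21.1 ± 1.55 CPM (SD, n = 3 each), or by a log2 value of 2.16 (SE 0.11, edgeR adjusted p = 2.30e-07). C1R (1.34), MASP1 (1.30) and F12 (1.56) are further targets of SERPING1 with log2 fold changes past 2-fold, beside -0.20 for SERPING1 itself. Of its other listed targets, KLKB1 (1.44, edgeR adjusted p = 0.00853) and F11 (0.85, edgeR adjusted p = 0.00155) were higher without being called, and MASP2 (0.32, edgeR adjusted p = 0.171) did not pass. F10, a target of SERPINA10, had a log2 fold change of 1.06 and PROZ, its cofactor, one of 0.60, beside -0.48 for SERPINA10. F11, given above, is a target of SERPINA10 too. PROC, whose activated product SERPINA5 inhibits, had one of -0.16 (edgeR adjusted p = 0.259). The neutrophil and mast cell proteases ELANE, PRTN3, CTSG and CMA1 and the kallikreins KLK1 and KLK3 had too few counts to test, with at most 19 in any library.

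Among 9 genes of hormone carriage and response, 7 had enough counts, 5 passed an adjusted p of 0.05 as higher (background 23.3%) and 0 as lower (22.4%), and the median log2 fold change was 0.68. The counts at an unadjusted p under 0.05 in edgeR were also 5 and 0. By edgeR 2 were called higher (DIO1 and NR3C2, background 4.43%) and 0 lower (1.78%), and the Wald test of DESeq2 also called 0 lower. DIO1, which converts thyroxine to its active form, rose from 1.15 ± 0.324 to 8.14 ± 1.18 CPM (SD, n = 3 each), or by a log2 value of 2.83 (SE 0.20, edgeR adjusted p = 2.21e-06). The other thyroxine carriers TTR and ALB had log2 fold changes of 0.68 and 0.74, and the thyroid hormone receptors THRA and THRB had 0.05 and 0.07, which did not pass. NR3C2, the mineralocorticoid receptor, was called higher at 2.19, and NR3C1, the glucocorticoid receptor, had 0.46. HSD11B1, which regenerates cortisol, had no counts.

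Factors that fold, export or degrade serpins in the endoplasmic reticulum stayed under 2-fold. All 13 were tested, and 0 were called in either direction by edgeR or by the Wald test of DESeq2. The background of calls was 4.43% higher and 1.78% lower, so 0 of 13 is near it. At an unadjusted p under 0.05, edgeR had 4 higher and 3 lower. There were 4 higher (background 23.3%) and 2 lower (22.4%) past an adjusted p of 0.05, with a median log2 fold change of 0.00. CANX, the chaperone calnexin, had a log2 fold change of -0.48 and SYVN1, a ubiquitin ligase of this compartment, one of 0.44. LMAN1 and MCFD2, the cargo receptor through which SERPINA1 leaves the endoplasmic reticulum, had log2 fold changes of -0.18 (adjusted p = 0.242) and 0.08 (adjusted p = 0.349) in edgeR's test.

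Of 13 hepatic and acute phase transcription factors, all tested, 8 passed an adjusted p of 0.05 as higher and 1 as lower, beside 23.3% and 22.4% of all genes and loci, with a median log2 fold change of 0.36. IRF1, a mediator of interferon responses, was called higher at 1.38. STAT3, which carries the interleukin-6 signal to acute phase genes, rose from 90.3 ± 4.48 to 168 ± 2.78 CPM (SD, n = 3 each), or by a log2 value of 0.89, and CEBPD had one of 0.98. For HNF4A, a regulator of liver genes, the log2 value was -0.06 (edgeR adjusted p = 0.608), which did not pass.

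**Figure D4:**
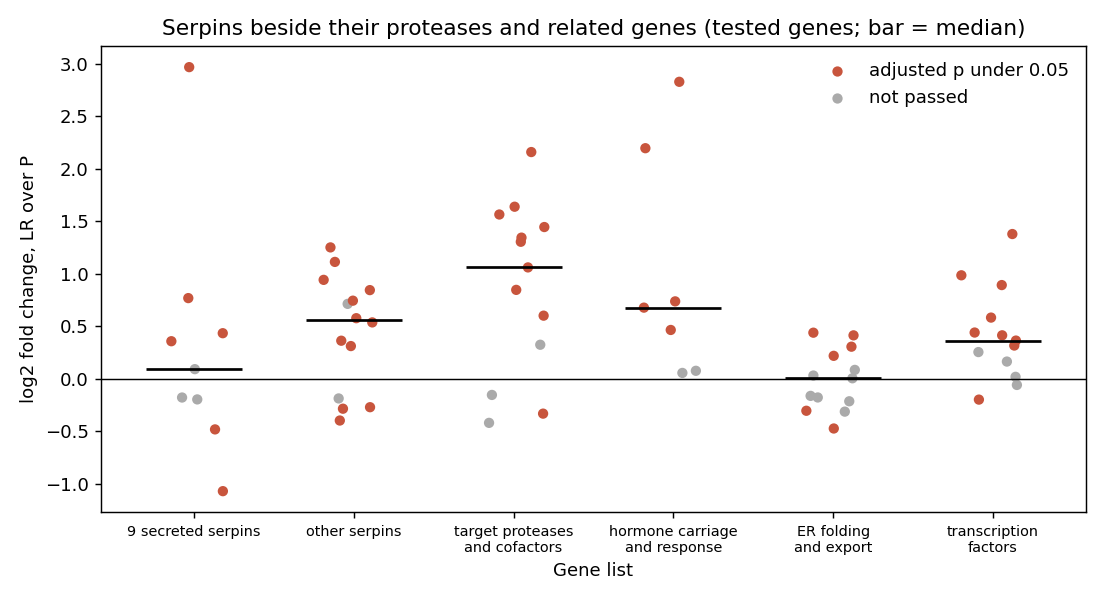
log2 fold change in Huh7 LR over Huh7 P of every tested gene of 6 lists, where red points passed an adjusted p of 0.05 in edgeR's test, grey points did not, and black bars are medians. The median is 0.09 for the 9 secreted serpins, 1.06 for target proteases and cofactors and 0.00 for factors of the endoplasmic reticulum (ER).

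Huh7 LR replicate 1 was the library nearest to the Huh7 P mean for 4 of the 6 serpins that passed an adjusted p of 0.05 (SERPINA3, SERPINA4, SERPINA5 and SERPINA7). Over all 8016 genes and loci that passed, replicate 1 was nearest for 34.0%, replicate 2 for 39.1% and replicate 3 for 26.9%. With replicate 1 left out, SERPINA1 had a log2 fold value of 0.15 (edgeR adjusted p = 0.141) and again did not pass.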

How the data were processed

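RNA-seq libraries of 3 Huh7 P and 3 Huh7 LR samples were analysed from 1 table. The authors deposited, for each gene and library, a whole-number read count that was not normalized and an FPKM value that they scaled for transcript length and library size. The submitters' processing notes name TopHat2, Cufflinks, DESeq and the mouse build mm10 and the labels describe extraction from an insect, whereas the identifiers are human. The annotation and strand setting are not given in the sources used here. In the table, 34 lines name no gene and were left out. All 19974 annotated identifiers are in GENCODE release 29 (GRCh38), the source of gene coordinates, and promoters are from RefSeq on GRCh38.p14.

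Genes with too few counts were removed by filterByExpr, with settings of 10 per library and 15 in total. The main test was the quasi-likelihood test of edgeR 4.0.16 (R 4.3.3) after TMM scaling, with Benjamini-Hochberg adjustment. The standard error of each change was its size divided by the square root of F. Alternatives used DESeq2 1.42.0, limma 3.58.1 on FPKM, other filters, a replicate block and libraries left out. The tests were tested on simulated data. The serpin genes and the lists were chosen with earlier results of these data known, and the lists were written from general knowledge. Named genes were all 9 serpins, the genes of the chromosome 14 cluster with 3 coding genes on either side, the genes with the closest profiles, and, of the called genes of each list, up to 3 with the highest and 3 with the lowest log2 fold change. Other genes were named for their role as a target, carrier or regulator, after their values were seen. Figures used matplotlib 3.10.9. Results for some listed genes are not reported here.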

Additional observations from a re-analysis of the deposited data

How the results depend on the processing

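The log2 fold changes of all 9 serpins kept their direction under 13 alternatives, and 8 of the 9 also kept their side of an adjusted p of 0.05. The exception was SERPING1, which passed without Huh7 LR replicate 1 (log2 fold change -0.43) and lay between -0.43 and -0.072 over the 6 fits with 1 library left out. The number of serpins called higher was 1 in every alternative except at an adjusted p under 0.05 with no fold threshold, where both criteria were looser and it was 4. The number called lower was 2 under those looser criteria, 0 with limma-trend on log2(FPKM + 1), 0 when SERPINA3 was summed with AL049839.2 (an alternative chosen after seeing the data), and 0 to 1 with 1 library left out. The replicate block gave 1 serpin higher and 1 lower, as without it, and over all genes 783 higher and 316 lower beside 776 and 312. Deviations of same-numbered libraries of both lines correlated at 0.032 to 0.034, and every library correlated best with its own number. Pairs with unlike numbers had correlations of -0.023 to -0.0089. The labels do not say that a number marks a shared culture or day, and this was not tested.

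The counts of the other lists were recomputed under the same alternatives after seeing the data. With limma-trend on log2(FPKM + 1) there was 1 further serpin called higher in place of 2, and 1 hormone gene in place of 2. There were 0 transcription factors and 0 fibroblast markers in place of 1 each, and 5 target proteases in place of 6. With limma-trend on log2(FPKM + 0.1) there was 1 hormone gene and 0 fibroblast markers. With at least 10 counts in every library, 2 transcription factors were called higher, and with 1 library left out 1 to 2, while fibroblast markers ranged from 0 to 1. The cause of these changes was not tested. Over all genes, limma-trend on log2(FPKM + 1) called 268 higher and 84 lower. Depth limits SERPINA7 in Huh7 P, where it had 19 to 37 counts per library.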
